A study of Mus musculus with 6 samples.

Results

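The genes described here make, break down and read the second messenger cyclic AMP (cAMP) in brown fat of mice. They are the adenylyl cyclases (Adcy), the phosphodiesterases named Pde with a number and a letter from a to d, the catalytic (Prkaca, Prkacb) and regulatory (Prkar) subunits of protein kinase A (PKA), and the A-kinase anchoring proteins named Akap with a number. They were taken from the count table by these symbol patterns, which gave 52 of the 35975 rows with counts: 10 cyclases, 22 phosphodiesterases, 2 catalytic subunits, 4 regulatory subunits and 14 anchors. Of the 52, 39 had 10 or more counts in at least 2 of 4 libraries, and all 39 also passed the filter on low counts used for testing. The 39 were 7 cyclases, 17 phosphodiesterases, all 6 PKA subunits and 9 anchors.

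Noradrenaline released from sympathetic nerves binds beta-adrenergic receptors on the brown adipocyte, and the stimulatory G protein then activates adenylyl cyclases that turn ATP into cAMP. cAMP binds the regulatory subunits of PKA and frees the catalytic subunits, which phosphorylate lipid droplet proteins and lipases and so start lipolysis and heat production. Phosphodiesterases end the signal by splitting cAMP or its relative cGMP, and anchoring proteins hold PKA, phosphodiesterases and substrates together at membranes, mitochondria or the nucleus.

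Messenger RNA was sequenced from interscapular brown fat, all on the C57BL/6 background. In the Olfm4CKO group (Ucp1-Cre; Olfm4 flox/flox) floxed Olfm4 is cut by a Cre recombinase that the Ucp1 promoter switches on in brown adipocytes. The Ctrl group is given only as control; the labels do not say whether its mice carry the floxed allele or Cre, nor the age or sex of any mouse, and the sample titles of both groups carry a WT tag for Olfm4. There were 3 libraries per group, of which replicates 1 and 2 of each are used, because the replicate 3 columns did not follow the gene names (Spearman correlation with the other libraries -0.0209 to -0.0156 across rows). Olfm4 itself, which encodes a secreted glycoprotein, had 0 counts in each of the 4 libraries, which allows up to 0.196 CPM in the shallowest of them, so it could not check the genotype labels. Total counts were 15547569 and 15346705 in Olfm4CKO replicates 1 and 2 and 15953676 and 17309325 in Ctrl replicates 1 and 2. Brown adipocyte markers were present in every library, none of the 11 being at 0, and their summed level was 19390 and 11030 normalised CPM (counts scaled to library size) in Olfm4CKO replicates 1 and 2, against 18390 and 23600 CPM in Ctrl replicates 1 and 2. Xist and Y-linked transcripts also differed within the Ctrl group: Xist had 215 and 207 CPM in Olfm4CKO replicates 1 and 2, against 0 and 49.5 CPM in Ctrl replicates 1 and 2, and Ddx3y was detected in Ctrl replicate 1 alone (81.4 CPM). These values show that the Ctrl libraries were not made from the same RNA. Xist was also higher in both Olfm4CKO libraries than in both Ctrl libraries. Xist can therefore not be told apart from genotype here, while the Y-linked transcripts split the Ctrl group. Sex and genotype are thus mixed in part, and the part of sex in the comparisons below was not tested. The fits without Ctrl replicate 1 compare only libraries in which Ddx3y had 0 counts. No label says whether the Olfm4CKO libraries are different mice. They differed beyond counting error (chi-square over degrees of freedom 143), but whether that is scatter between mice is not known. A p-value here therefore speaks of the scatter of these 4 libraries only. In bulk tissue fewer cells of a type and less RNA per cell cannot be told apart.

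A few transcripts made up most of each class in brown fat. Levels between genes were compared per kilobase of the longest annotated transcript, as CPM per kilobase averaged over the 4 libraries. Among the regulatory subunits, Prkar2b, the RII-beta subunit typical of adipose tissue and brain, stood at 375 CPM per kilobase and made up 83.3% ± 2.4 of the class sum (SD over 4 libraries). Prkar1a, the RI-alpha subunit found in nearly all cells, followed at 68.6 CPM per kilobase. Prkar2a at 3.95 and Prkar1b at 0.917 CPM per kilobase were far lower. Prkaca, the main catalytic subunit, stood at 189 CPM per kilobase and its relative Prkacb at 15.3. Akap1, which anchors PKA to the outer mitochondrial membrane, led the anchors at 90.1 CPM per kilobase and 62.5% ± 7.1 of the class sum, ahead of Akap7, an anchor of the plasma membrane, at 14.8.

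Among the cyclases, Adcy6, a calcium-inhibited isoform, stood at 34.8 CPM per kilobase and held 47.8% ± 3.3 of the class sum. It was followed by Adcy3, the calmodulin-responsive cyclase of olfactory neurons and cilia, at 16.5, by Adcy9, an isoform weakly sensitive to forskolin, at 11.3, and by Adcy4, which responds to G protein beta-gamma subunits, at 7.14 CPM per kilobase. Among the phosphodiesterases, the cAMP-specific Pde4d stood at 54.4 CPM per kilobase and Pde3b, the enzyme through which insulin restrains lipolysis in adipocytes, at 42.5. They made up 28.6% ± 5.4 and 22.1% ± 5.3 of the class sum, so these neighbours in the order did not differ beyond their spread. Pde2a, which cGMP stimulates, came next at 27.3 CPM per kilobase, then Pde4a at 17.7 and Pde8a at 14. The choice of transcript length moved these shares and part of the order. With the median length of a gene's transcripts, Pde3b held 28.9%, Pde2a 24.1% and Pde4d 19.4% of the phosphodiesterase sum. By that length Adcy4, at 14.2% of the cyclase sum, stood ahead of Adcy9 at 11%. Prkar2b then held 58.8% and Prkar1a 37.2% of the regulatory subunits, and Prkar2b 43% in place of 57.1% of all PKA subunits. Akap1 held 34% of the anchors by that length, followed by Akap9 at 17.9%, ahead of Akap7 at 13.9%.

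**Figure D1:**
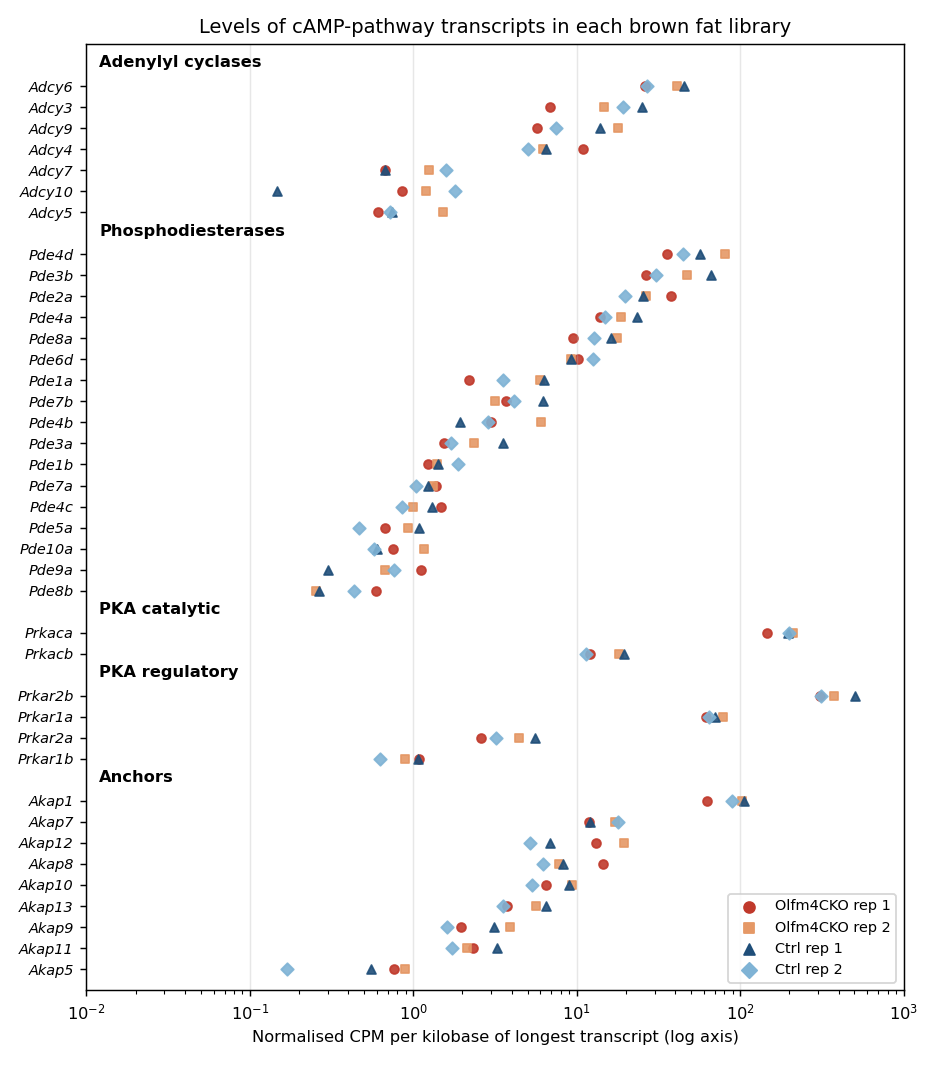
Level of each of the 39 genes in each library, in normalised CPM per kilobase of the longest transcript on a log axis, grouped by class; each symbol is 1 library. Prkar2b, Prkaca and Akap1 stand highest, and in most genes the Olfm4CKO and Ctrl symbols are interleaved.

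At the low end of the classes, 13 genes stayed below the minimum. They were Adcy1, Adcy2 and Adcy8, Pde1c, Pde6a, Pde6b, Pde6c and Pde11a, and Akap2, Akap3, Akap4, Akap6 and Akap14. Pde6a, Pde6b and Pde6c encode the phosphodiesterases of rods and cones, and Akap3 and Akap4 anchors of the sperm tail. Pde6b, Pde6c, Akap2 and Akap14 had 0 counts in all 4 libraries. Just inside the minimum, Pde9a had 36 and 22 counts in Olfm4CKO replicates 1 and 2 and 10 and 27 in Ctrl replicates 1 and 2. Just outside it, Akap6, an anchor of the nuclear envelope in muscle, had 8 and 16 counts in Olfm4CKO and 7 and 4 in Ctrl, and Pde11a had 5 and 11 in Olfm4CKO and 9 and 1 in Ctrl. Pde6d carries a phosphodiesterase name but encodes a carrier of prenylated proteins, and it stays in the phosphodiesterase sum and shares. It was detected at 13.3 and 12 CPM in Olfm4CKO and 12 and 16.5 CPM in Ctrl. Pde6a, Pde6b and Pde6c together had 1 count in the 4 libraries. Pde6d overlaps the protein-coding gene Cops7b in the RefSeq annotation, so reads may be shared.

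The promoters of the genes were read for the cAMP response element, the binding sequence of the CREB family, because PKA signalling acts on transcription through it. The windows run from 250 bases before to 50 bases after a RefSeq start site (GRCm38.p6, 5′ to 3′ on the gene's strand), and 42 of the 52 genes matched, with 84 windows. The whole element TGACGTCA, which reads the same on both strands, was found in 2 windows (2.38%), against 1.79% of all 32851 windows. Both belong to Prkar1a and overlap. Its core TGACG, searched on both strands as TGACG and CGTCA and including those inside a whole element, was found in 16 windows (19%), against 20.8% of all windows. Counted by gene, 14 of the 42 had it in at least 1 window (33.3%), against 23% of all 27025 genes, and the 42 genes have more windows per gene (84 for 42, against 32851 for 27025). The 4 windows shown are those of Prkar1a with the whole element, of Pde4b with a core, and of Adcy3 and Prkar2b, the cyclase with the lowest p and the most abundant regulatory subunit, in which neither was found; capitals mark the element and its cores. Akap12 had no window in the table used.
Prkar1a, chr11:109650699-109650998, plus strand: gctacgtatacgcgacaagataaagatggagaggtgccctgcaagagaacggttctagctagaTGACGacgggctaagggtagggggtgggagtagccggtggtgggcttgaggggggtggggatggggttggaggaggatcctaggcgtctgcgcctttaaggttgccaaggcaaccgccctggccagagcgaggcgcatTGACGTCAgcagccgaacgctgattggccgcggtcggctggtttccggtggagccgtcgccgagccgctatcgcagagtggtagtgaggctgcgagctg
Pde4b, chr4:102421305-102421604, plus strand: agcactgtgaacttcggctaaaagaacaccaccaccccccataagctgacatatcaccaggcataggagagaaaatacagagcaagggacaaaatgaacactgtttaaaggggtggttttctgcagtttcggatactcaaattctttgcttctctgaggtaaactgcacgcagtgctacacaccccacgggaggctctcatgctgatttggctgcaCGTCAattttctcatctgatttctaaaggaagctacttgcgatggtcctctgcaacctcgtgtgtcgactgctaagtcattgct
Adcy3, chr12:4133147-4133446, plus strand: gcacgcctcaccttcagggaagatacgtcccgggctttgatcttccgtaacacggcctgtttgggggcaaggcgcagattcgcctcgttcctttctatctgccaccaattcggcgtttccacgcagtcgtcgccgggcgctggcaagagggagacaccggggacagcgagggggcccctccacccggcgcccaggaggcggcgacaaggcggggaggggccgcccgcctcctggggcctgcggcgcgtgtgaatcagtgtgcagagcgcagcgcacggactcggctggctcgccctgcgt
Prkar2b, chr12:32061228-32061527, minus strand: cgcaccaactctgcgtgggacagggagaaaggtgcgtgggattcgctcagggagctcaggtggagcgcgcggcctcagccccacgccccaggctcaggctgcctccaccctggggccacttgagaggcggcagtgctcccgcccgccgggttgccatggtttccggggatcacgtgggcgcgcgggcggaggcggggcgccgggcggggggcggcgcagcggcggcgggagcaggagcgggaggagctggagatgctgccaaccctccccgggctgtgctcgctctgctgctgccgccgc
In the Prkar1a window the element begins at position -49 and a further core at position -187, counted back from the start site. The core in Pde4b begins at position -34. Prkar1a has 6 windows in the table and Pde4b 4, of which 1 is shown for each, and a match in these letters describes the window and does not show a bound site.

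No gene of the 4 classes passed the test between Olfm4CKO and Ctrl. With edgeR's quasi-likelihood test adjusted over all 13573 genes tested, 0 of the 39 had an adjusted p below 0.05, where 0% of all genes passed, and the adjusted p of every one of them was 0.9998. DESeq2 (0.00737% of all genes) and limma-voom (0% of all genes) also passed 0 of them. At an unadjusted p below 0.05 there were 2, Akap12 and Adcy3, against 2.11% of all genes. The 39 log2 fold changes ran from -1.05 to 1.43 with a median of 0.05, against -0.01 over all genes tested, and 20 lay above 0 (51.3%, against 48.6% of all genes). The libraries of the groups did not overlap, with both Olfm4CKO libraries higher, in 6 of the 39 (Pde10a, Pde7a, Pde4b, Pde2a, Akap12 and Akap5), against 11.8% of all genes. They did not overlap with both Olfm4CKO libraries lower in 3 (Adcy3, Pde7b and Pde1b), against 12.8% of all genes. The median log2 fold change was 0.08 for the cyclases, 0.05 for the phosphodiesterases, -0.09 for the PKA subunits and 0.14 for the anchors. The intervals were wide: in 9 of the 39 (23.1%, against 31.1% of all genes tested) the 95% interval of the fold change lay within 2-fold either way. An exact permutation test of 2 libraries against 2 cannot go below 0.333, so none was run.

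**Figure D2:**
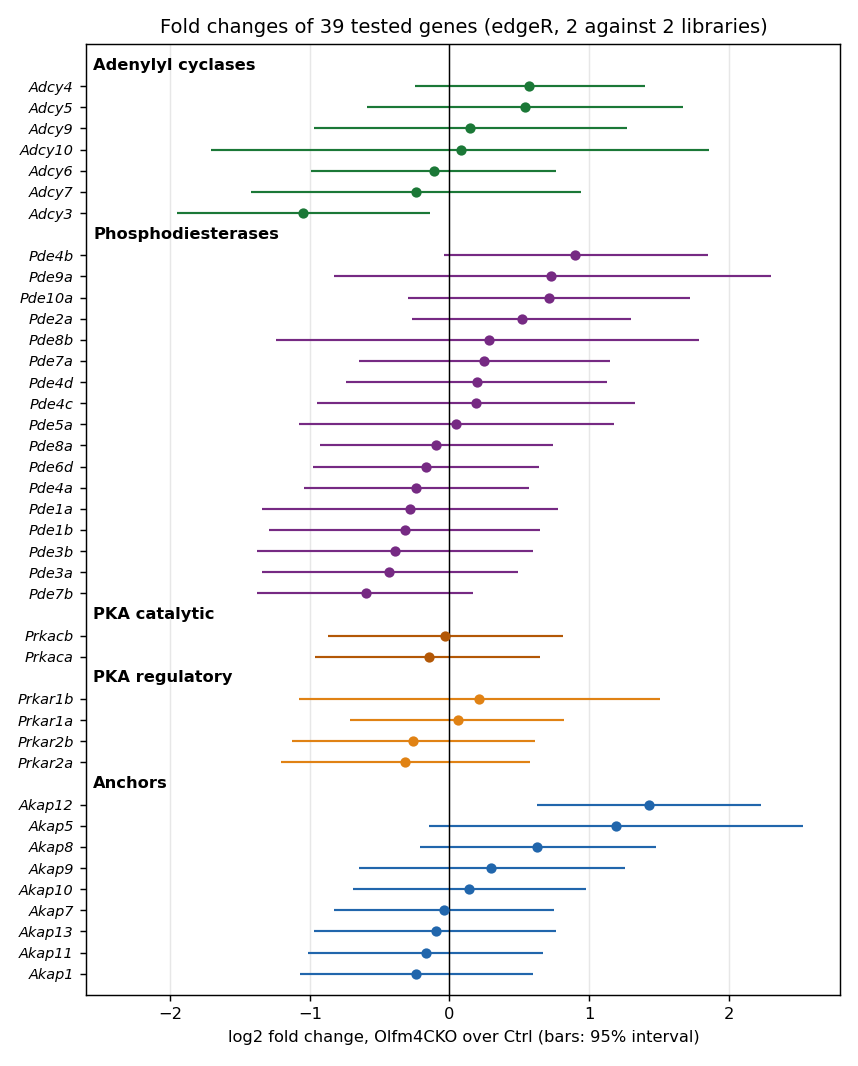
Log2 fold change of Olfm4CKO over Ctrl for the 39 genes by class, from edgeR's quasi-likelihood fit; points are estimates and bars 95% intervals. The intervals of Akap12 and Adcy3 do not reach 0 before adjustment, and all the others do.

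Of the cyclases, Adcy3 had the lowest p. It had 38.7 and 82.5 CPM in Olfm4CKO replicates 1 and 2, against 142 and 108 CPM in Ctrl replicates 1 and 2. Neither Olfm4CKO library reached the lower of the Ctrl libraries, with means of 60.6 ± 30.9 CPM in Olfm4CKO and 125 ± 23.5 CPM in Ctrl (SD, n = 2 each). The log2 fold change was -1.05 ± 0.41 (standard error, as in all that follow), with a 95% interval of -1.95 to -0.14 (edgeR adjusted p = 0.9998). It shrank to -0.58 when Olfm4CKO replicate 1 was left out and was -1.70 when Olfm4CKO replicate 2 was left out. Adcy3 made up 13.3% and 17.6% of the cyclase sum in Olfm4CKO replicates 1 and 2, against 27.2% and 30.6% in Ctrl replicates 1 and 2. The gene lies on chromosome 12 from 4133116 to 4213525 (GRCm38) and overlaps the protein-coding gene Cenpo in the RefSeq table, so reads of the 2 may be shared.

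The leading cyclase, Adcy6, had 158 and 246 CPM in Olfm4CKO replicates 1 and 2 and 274 and 163 CPM in Ctrl replicates 1 and 2. The groups overlapped, and the log2 fold change was -0.11 ± 0.40, with a 95% interval of -0.99 to 0.76. Per kilobase, the ratio of Adcy6 to Adcy3 was 3.79 and 2.78 in Olfm4CKO replicates 1 and 2, against 1.8 and 1.4 in Ctrl replicates 1 and 2. Adcy9 had 28.3 and 89.5 CPM in Olfm4CKO and 69.1 and 37.3 CPM in Ctrl (log2 fold change 0.15 ± 0.51). Its highest and its lowest library were both Olfm4CKO. Adcy5, the close relative of Adcy6, had 4.26 and 10.6 CPM in Olfm4CKO and 5.2 and 5.04 CPM in Ctrl (log2 fold change 0.54 ± 0.51). Adcy10, the soluble cyclase that bicarbonate stimulates, had 4.78 and 6.61 CPM in Olfm4CKO and 0.814 and 9.96 CPM in Ctrl. Its Ctrl libraries lay on either side of both Olfm4CKO libraries, a 12.2-fold span that was the widest of the 39 genes. Adcy7, the beta-gamma-responsive relative of Adcy4, gave a log2 fold change of -0.24 ± 0.54, and it overlaps the protein-coding gene Brd7.

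Adcy4 had 46.5 and 26.4 CPM in Olfm4CKO replicates 1 and 2 and 27.7 and 21.3 CPM in Ctrl replicates 1 and 2 (log2 fold change 0.57 ± 0.37). Olfm4CKO replicate 1 stood apart: there Adcy4 made up 21% of the cyclase sum, against 7.39% in Olfm4CKO replicate 2 and 7.01% and 7.93% in Ctrl replicates 1 and 2. The summed level of 10 vascular endothelial markers was 1973 and 1626 CPM in Olfm4CKO replicates 1 and 2, against 1277 and 1137 CPM in Ctrl replicates 1 and 2. All 10 endothelial markers had a log2 fold change above 0, with a median of 0.58, and none was at 0 counts in all libraries. Cdh5, Kdr, Cldn5 and Sox17 were higher in Olfm4CKO without overlap, while Pecam1, Tek, Tie1, Emcn, Egfl7 and Esam overlapped between groups. The part of endothelial RNA in the values of Adcy4, and of Pde2a, Akap12 and Rapgef3 below, was not tested.

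**Figure D3:**
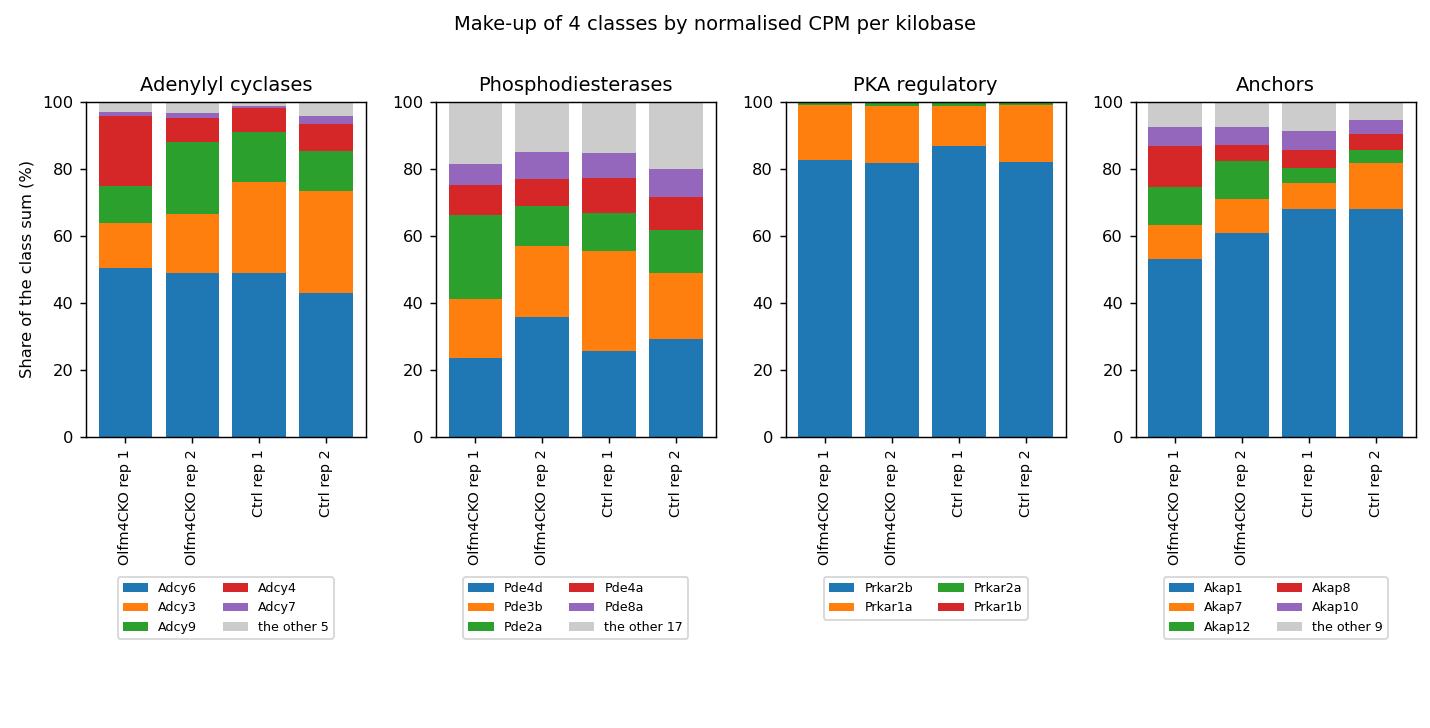
Share of each gene in the summed normalised CPM per kilobase of its class, in percent, for the 4 libraries; the 5 leading genes of a class are coloured and the rest is grey. Adcy3 takes a smaller share of the cyclases in both Olfm4CKO libraries than in both Ctrl libraries, and Akap12 a larger share of the anchors.

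Pde4d and Pde3b, the highest phosphodiesterases per kilobase of the longest transcript, gave overlapping groups. Pde4d had 150 and 339 CPM in Olfm4CKO replicates 1 and 2 and 238 and 189 CPM in Ctrl replicates 1 and 2 (log2 fold change 0.20 ± 0.42). Pde3b had 175 and 309 CPM in Olfm4CKO and 433 and 201 CPM in Ctrl (log2 fold change -0.39 ± 0.45), and Ctrl replicate 1 was its highest library. The ratio of Pde3b to Pde4d per kilobase was 0.746 and 0.583 in Olfm4CKO replicates 1 and 2, against 1.17 and 0.684 in Ctrl replicates 1 and 2, and these overlapped too. Pde4a had 64.3 and 86.7 CPM in Olfm4CKO and 108 and 69.7 CPM in Ctrl (log2 fold change -0.24 ± 0.36). Pde3a, the isoform of heart and vessel muscle, had 19 and 29.1 CPM in Olfm4CKO and 43.8 and 20.8 CPM in Ctrl (log2 fold change -0.43 ± 0.41). In the whole class, enzymes specific for cAMP (Pde4, Pde7 and Pde8) summed to 69.1 and 129 CPM per kilobase in Olfm4CKO and 107 and 81.9 in Ctrl. Those that split both nucleotides (Pde1, Pde2a, Pde3, Pde10a and Pde11a) summed to 70.1 and 84.7 CPM per kilobase in Olfm4CKO and 103 and 58 in Ctrl. The cGMP-specific Pde5a and Pde9a were a small part of the class, at 1.78 and 1.6 CPM per kilobase in Olfm4CKO and 1.38 and 1.23 in Ctrl. Pde6a to Pde6c, also cGMP-specific, were not in this sum.

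Pde4b, a cAMP-specific enzyme whose transcription cAMP itself can induce, had the lowest p of the phosphodiesterases. It had 12.9 and 25.9 CPM in Olfm4CKO replicates 1 and 2, against 8.33 and 12.4 CPM in Ctrl replicates 1 and 2. Both Olfm4CKO libraries lay above both Ctrl libraries, though Olfm4CKO replicate 1 lay close to Ctrl replicate 2. The log2 fold change was 0.90 ± 0.43, with a 95% interval of -0.04 to 1.85 (edgeR adjusted p = 0.9998), and leaving out Olfm4CKO replicate 2 brought it to 0.31, while leaving out Olfm4CKO replicate 1 brought it to 1.34. Within the family, the fold changes ran from -0.24 for Pde4a to 0.90 for Pde4b, with 0.19 for Pde4c and 0.20 for Pde4d between them.

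Pde7b, a cAMP-specific enzyme insensitive to rolipram, had 19.8 and 16.9 CPM in Olfm4CKO replicates 1 and 2, against 33.6 and 22.2 CPM in Ctrl replicates 1 and 2. The Olfm4CKO libraries lay below the Ctrl libraries, with a log2 fold change of -0.60 ± 0.35 (edgeR adjusted p = 0.9998). It was -0.28 without Ctrl replicate 1 and -0.86 without Ctrl replicate 2. Its relative Pde7a had the opposite order, with 8.72 and 8.33 CPM in Olfm4CKO against 7.76 and 6.58 CPM in Ctrl and a log2 fold change of 0.25 ± 0.41. Pde2a had 159 and 113 CPM in Olfm4CKO, against 107 and 82.9 CPM in Ctrl (log2 fold change 0.52 ± 0.36; 0.26 without Olfm4CKO replicate 1). Here too the Olfm4CKO libraries were the higher ones, beside the endothelial markers given above. Pde10a, an enzyme best known from the striatum, had 5.81 and 9.03 CPM in Olfm4CKO, against 4.63 and 4.45 CPM in Ctrl (log2 fold change 0.71 ± 0.46; 0.35 without Olfm4CKO replicate 2).

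The calcium- and calmodulin-stimulated Pde1a had 9.3 and 25.3 CPM in Olfm4CKO and 27 and 15.1 CPM in Ctrl (log2 fold change -0.28 ± 0.48), and its groups overlapped. Its relative Pde1b did not overlap, with 5.17 and 5.91 CPM in Olfm4CKO against 5.95 and 7.89 CPM in Ctrl, but the nearest libraries of the 2 groups were almost level. Pde5a, the target of sildenafil, had 5.1 and 7.06 CPM in Olfm4CKO and 8.2 and 3.56 CPM in Ctrl (log2 fold change 0.05 ± 0.51). Pde8b, the high-affinity enzyme of adrenal and thyroid, had 2.52 and 1.08 CPM in Olfm4CKO and 1.13 and 1.84 CPM in Ctrl (log2 fold change 0.28 ± 0.69). Both overlapped between groups. The other phosphodiesterases, Pde4c, Pde6d, Pde8a and Pde9a, overlapped as well, with log2 fold changes from -0.17 to 0.73.

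None of the 6 PKA subunits separated the groups. Prkar1a had 216 and 276 CPM in Olfm4CKO replicates 1 and 2 and 247 and 226 CPM in Ctrl replicates 1 and 2, a 1.28-fold span over the 4 libraries that was the narrowest of the 39 genes. Its log2 fold change was 0.06 ± 0.35, with a 95% interval of -0.71 to 0.82. Prkaca had 331 and 482 CPM in Olfm4CKO and 449 and 455 CPM in Ctrl (log2 fold change -0.15 ± 0.36). Its Ctrl libraries were almost level and lay between the Olfm4CKO libraries. Prkacb had 52.6 and 78.6 CPM in Olfm4CKO and 84.4 and 49.7 CPM in Ctrl (log2 fold change -0.03 ± 0.38), again with overlap.

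Prkar2b had 1042 and 1261 CPM in Olfm4CKO replicates 1 and 2 and 1711 and 1052 CPM in Ctrl replicates 1 and 2. Only Ctrl replicate 1 stood above the other 3 libraries, and the log2 fold change of -0.26 ± 0.39 became 0.13 without it. Prkar2a, the RII-alpha subunit, had 12.8 and 22.1 CPM in Olfm4CKO and 27.7 and 15.8 CPM in Ctrl (log2 fold change -0.32 ± 0.41). Prkar1b, the RI-beta subunit known from neurons, had 2.84 and 2.35 CPM in Olfm4CKO and 2.82 and 1.66 CPM in Ctrl (log2 fold change 0.21 ± 0.59); it overlaps the gene Dnaaf5. For these 3 too the groups overlapped. Summed per kilobase, regulatory over catalytic subunits gave a ratio of 2.37 and 1.99 in Olfm4CKO and 2.69 and 1.8 in Ctrl. The ratio of RII to RI subunits was 4.97 and 4.76 in Olfm4CKO and 7.18 and 4.85 in Ctrl. Ctrl replicate 1 was the highest library in both ratios, and in the second the other 3 lay close together.

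Akap12 stood furthest from the others among the anchors and among all 39 genes. It encodes gravin, a scaffold that binds PKA and protein kinase C. Akap12 had 81.3 and 121 CPM in Olfm4CKO replicates 1 and 2, against 42.8 and 32.2 CPM in Ctrl replicates 1 and 2. Both Olfm4CKO libraries lay well above both Ctrl libraries, with means of 101 ± 27.9 CPM in Olfm4CKO and 37.5 ± 7.48 CPM in Ctrl (SD, n = 2 each). The log2 fold change was 1.43 ± 0.36, with a 95% interval of 0.63 to 2.23 (edgeR adjusted p = 0.9998), so it did not pass. It was 1.71 without Olfm4CKO replicate 1, 1.65 without Ctrl replicate 1 and 1.25 without Ctrl replicate 2, and still above 0 without Olfm4CKO replicate 2. The smallest edgeR adjusted p among these fits was 0.0508. Akap12 made up 11.2% and 11.5% of the anchor sum in Olfm4CKO, against 4.42% and 3.99% in Ctrl. It lies on chromosome 10 from 4266329 to 4359471 (GRCm38) and overlaps a long noncoding RNA gene, Gm40592. The sum of the endothelial markers given beside Adcy4 was higher in both Olfm4CKO libraries as well, though not each marker by itself. Markers of pericytes and smooth muscle summed to 853 and 779 CPM in Olfm4CKO and 921 and 712 CPM in Ctrl. Those of adipocyte progenitors and fibroblasts summed to 794 and 1427 CPM in Olfm4CKO and 1179 and 1511 CPM in Ctrl.

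Akap5, an anchor of calcineurin and PKA at the plasma membrane, had 5.1 and 5.91 CPM in Olfm4CKO replicates 1 and 2, against 3.69 and 1.13 CPM in Ctrl replicates 1 and 2. The groups did not overlap, and the log2 fold change was 1.19 ± 0.61 (edgeR adjusted p = 0.9998). It rests on 79 and 93 counts in Olfm4CKO against 59 and 19 counts in Ctrl, and it was 0.59 without Ctrl replicate 2 and 2.28 without Ctrl replicate 1. Akap8, an anchor of the nuclear matrix, had 66.4 and 35.8 CPM in Olfm4CKO and 37.6 and 28.2 CPM in Ctrl (log2 fold change 0.63 ± 0.38; edgeR adjusted p = 0.9998). Only Olfm4CKO replicate 1 stood above the rest, and without it the log2 fold change was 0.14.

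Akap1, the leading anchor, had 239 and 394 CPM in Olfm4CKO and 407 and 339 CPM in Ctrl (log2 fold change -0.24 ± 0.38). Akap7 had 28.3 and 41.2 CPM in Olfm4CKO and 29 and 42.6 CPM in Ctrl (log2 fold change -0.04 ± 0.36). For both, the groups overlapped, and the Akap7 libraries formed a low and a high pair with 1 library of each group in either pair. Akap11, an anchor of type I and II PKA that also binds the kinase GSK3, had 21.8 and 19.8 CPM in Olfm4CKO and 30.6 and 16.2 CPM in Ctrl (log2 fold change -0.17 ± 0.38). Akap13, an anchor that is also an exchange factor for RhoA, had 46.9 and 70.7 CPM in Olfm4CKO and 82 and 44.3 CPM in Ctrl (log2 fold change -0.10 ± 0.39). These overlapped too, as did Akap9 of the Golgi and centrosome (0.30 ± 0.43) and Akap10 (0.14 ± 0.38).

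**Figure D4:**
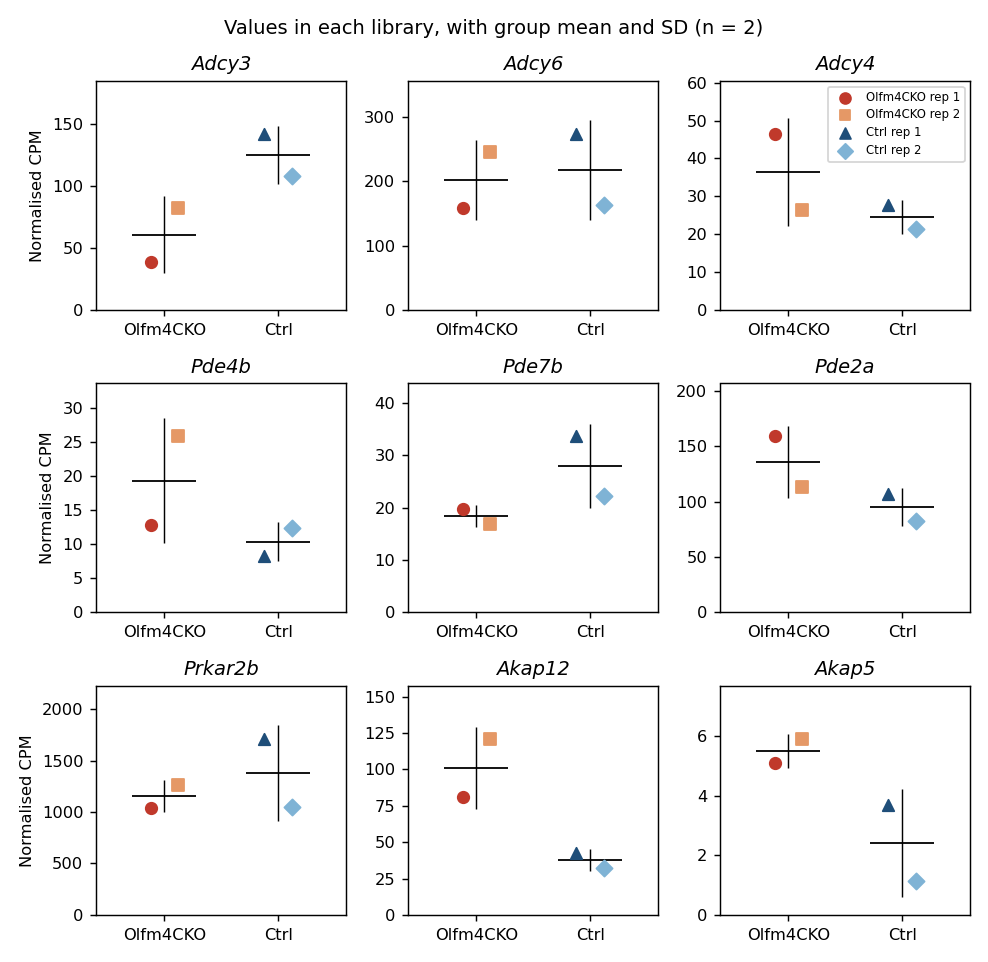
Normalised CPM of 9 genes in each library, Olfm4CKO left and Ctrl right; horizontal lines are group means and vertical lines SD (n = 2). Adcy3 and Pde7b lie lower and Pde4b, Pde2a, Akap12 and Akap5 higher in both Olfm4CKO libraries than in both Ctrl libraries, while Adcy6, Adcy4 and Prkar2b overlap.

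In most of the 39 genes the lowest library was Olfm4CKO replicate 1 or Ctrl replicate 2, so the libraries of a group often stood apart. Olfm4CKO replicate 1 was the lowest library in 18 of the 39 genes (46.2%, against 27% of all genes tested) and Ctrl replicate 2 in 15 (38.5%, against 27.1%). Olfm4CKO replicate 2 was the lowest in 3 (7.69%, against 26.5%) and Ctrl replicate 1 in 3 (7.69%, against 19.3%). The highest library was Ctrl replicate 1 in 14 genes (35.9%, against 23.3%) and Olfm4CKO replicate 2 in 12 (30.8%, against 22.5%). In the class sums per kilobase, too, Olfm4CKO replicate 1 was lowest and Ctrl replicate 2 second lowest in all 5 classes. Cyclases summed to 51.8 and 83.6 in Olfm4CKO replicates 1 and 2 and to 92.6 and 63 in Ctrl replicates 1 and 2, and phosphodiesterases to 151 and 224 in Olfm4CKO and 221 and 154 in Ctrl. The regulatory subunits summed to 373 and 457 in Olfm4CKO and 583 and 380 in Ctrl, and the anchors to 117 and 169 in Olfm4CKO and 156 and 130 in Ctrl. The catalytic subunits summed to 157 and 230 in Olfm4CKO and 217 and 211 in Ctrl. Ctrl replicate 1 was the highest library for cyclases and regulatory subunits, and Olfm4CKO replicate 2 for the other classes. Markers of skeletal muscle also differed between libraries of a group, at 256 and 44.2 CPM in Olfm4CKO replicates 1 and 2 and 105 and 56.1 CPM in Ctrl replicates 1 and 2, as did those of macrophages, at 198 and 271 CPM in Olfm4CKO and 189 and 460 CPM in Ctrl. Schwann cell markers summed to 220 and 174 CPM in Olfm4CKO, against 307 and 528 CPM in Ctrl, T and NK cell markers to 15.4 and 28.4 CPM in Olfm4CKO and 15.9 and 70.1 CPM in Ctrl, and white adipocyte markers to 89.7 and 64.1 CPM in Olfm4CKO and 46.7 and 47 CPM in Ctrl. No list had a marker at 0 in all 4 libraries, and the part of these cell types in the values was not tested.

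Around the 4 classes, 90 other symbols of the pathway were followed, of which 86 matched a row and 73 were tested, Crem and Sik1 standing in 2 lists each. None had an edgeR adjusted p below 0.05 (0% of all genes), and 3 had an unadjusted p below 0.05 (against 2.11% of all genes). Of the 73, 50 lay above 0 (68.5%, against 48.6% of all genes), and the median log2 fold change was 0.11. Of the 15 tested receptors and G proteins, 10 lay above 0 and their median was 0.06. Adrb3, the main adrenergic receptor of rodent adipocytes, had 221 and 167 CPM in Olfm4CKO and 109 and 302 CPM in Ctrl (log2 fold change -0.09 ± 0.46). Gnas, which encodes the stimulatory G protein alpha subunit, had 6659 and 4083 CPM in Olfm4CKO and 5578 and 5599 CPM in Ctrl (log2 fold change -0.06 ± 0.41). In both, the groups overlapped.

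Of the PKA inhibitors and PKA-like kinases, 3 were tested and gave a median of 0.03. Pkia, which encodes a peptide inhibitor of the catalytic subunit, had 2.91 and 1.97 CPM in Olfm4CKO and 2.5 and 2.67 CPM in Ctrl. Prkx, an X-linked kinase related to PKA, had 34.9 and 26.5 CPM in Olfm4CKO and 29.2 and 15.6 CPM in Ctrl. Neither separated the groups, with log2 fold changes of -0.08 ± 0.57 and 0.46 ± 0.38. Anchors with other names had 11 of 16 above 0 and a median of 0.22; Akap8l, the neighbour and relative of Akap8, had 35.6 and 17.7 CPM in Olfm4CKO, against 15.4 and 17.6 CPM in Ctrl (log2 fold change 0.69 ± 0.39). As in Akap8, Olfm4CKO replicate 1 alone was high. Among 5 other effectors and transporters of cAMP, 4 lay above 0. Rapgef3, which encodes the cAMP-activated exchange factor EPAC1, had 64.3 and 32.7 CPM in Olfm4CKO and 36.4 and 30.1 CPM in Ctrl (log2 fold change 0.54 ± 0.39), beside the endothelial markers given above. The exporter gene Abcc5 had 28.9 and 29.6 CPM in Olfm4CKO, against 20.4 and 17 CPM in Ctrl, without overlap (log2 fold change 0.65 ± 0.33).

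Downstream, the CREB family and its coactivators had 6 of 8 genes above 0 and a median of 0.30, with 46.2 and 65.8 CPM of the acetyltransferase gene Ep300 in Olfm4CKO and 51.8 and 25.6 CPM in Ctrl (log2 fold change 0.53 ± 0.40). PKA substrates of brown fat were evenly divided, 5 above and 5 below 0. Plin5, a lipid droplet protein, had 198 and 164 CPM in Olfm4CKO, against 282 and 287 CPM in Ctrl, without overlap (log2 fold change -0.65 ± 0.34). Transcripts induced by cAMP had 10 of 12 above 0 and a median of 0.42, and held the 3 genes with an unadjusted p below 0.05, Nr4a3, Per1 and Ucp1. Without overlap, 1 of the 12 was higher in both Olfm4CKO libraries (against 11.8% of all genes) and 2 were lower (against 12.8%). In the rest of the list the groups overlapped. Ucp1, the uncoupling protein of heat production, had 4815 and 2944 CPM in Olfm4CKO, against 5885 and 10210 CPM in Ctrl (log2 fold change -1.05 ± 0.45). Per1, a clock gene with cAMP response elements, had 82.7 and 133 CPM in Olfm4CKO, against 66.4 and 44.8 CPM in Ctrl (log2 fold change 0.96 ± 0.38). Neither overlapped between groups. Nr4a3, an immediate early nuclear receptor, had 22.8 and 148 CPM in Olfm4CKO replicates 1 and 2 and 11.1 and 27 CPM in Ctrl replicates 1 and 2 (log2 fold change 2.16 ± 0.72; edgeR adjusted p = 0.9998). Its value came from Olfm4CKO replicate 2: without that library it was 0.25, and the groups overlapped. Nr4a2 had 18.3 and 197 CPM in Olfm4CKO replicates 1 and 2 and 17 and 47 CPM in Ctrl replicates 1 and 2. There too Olfm4CKO replicate 2 was the highest library and the groups overlapped. Nr4a3 and Nr4a2 passed without Olfm4CKO replicate 1 (edgeR adjusted p = 3.79e-08 and 4.34e-06) and without Ctrl replicate 2 (0.00084 and 0.00707), the only pathway genes that passed when 1 library was left out. Among the genes of cGMP, 4 of 5 lay above 0, with Npr2, a natriuretic peptide receptor that makes cGMP, at 48 and 40.5 CPM in Olfm4CKO against 26.2 and 28.5 CPM in Ctrl (log2 fold change 0.70 ± 0.33). Pde12, which carries a phosphodiesterase name but splits oligoadenylates, was the one tested gene of that name outside the symbol pattern (log2 fold change -0.18 ± 0.34).

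**Figure D5:**
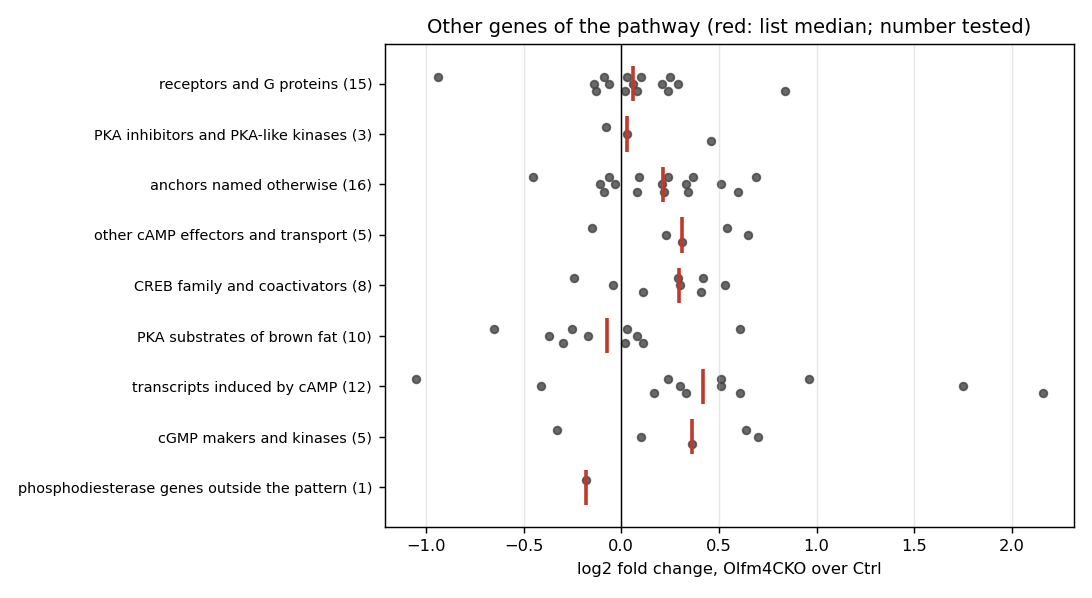
Log2 fold change of Olfm4CKO over Ctrl for the tested pathway genes outside the 4 classes, 1 row per list with the number tested in brackets; each point is a gene and each red line the list's median. The medians lie between -0.18 and 0.42, and the widest list is that of transcripts induced by cAMP.

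The share of genes passing an adjusted p of 0.05 depended on single libraries. It was 0.19% of all genes tested without Olfm4CKO replicate 1, 0.042% without Olfm4CKO replicate 2, 0.175% without Ctrl replicate 1 and 0.19% without Ctrl replicate 2 (fits in which the single library left in a group is taken to scatter as the other group does). It was 0.0295% in the fit with the replicate number as a block. None of the 39 genes passed in any of these fits. Of the 29 described in full, 8 kept one sign of the log2 fold change whichever library was left out (Adcy3, Pde2a, Pde4b, Pde7b, Pde10a, Akap5, Akap8 and Akap12), and the other 21 turned at least once.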

How the data were processed

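Read counts per gene, as deposited, are the only values used. The submitters' processing notes name cutadapt 1.11, HISAT2 2.1.0, featureCounts 1.6.0 and the build mm10. For annotation and strandedness, the setting is not given in the sources used here; overlapping or near-identical genes can therefore share counts. The table is named for FPKM, but its values are whole numbers with differing column totals and were taken as counts. Of 35978 rows, 3 broken lines were left out and 27 rows whose symbols had become dates were counted unnamed. Replicate 3 columns (24276 rows filled) entered no value per gene.

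Olfm4CKO and Ctrl, 2 libraries each, were compared in edgeR 4.0.16 (R 4.3.3): genes were kept by filterByExpr at a minimum count of 10 and a minimum total of 15, libraries scaled by TMM, and group tested by quasi-likelihood with Benjamini-Hochberg adjustment over all genes at 0.05. Intervals come from that fit. The biological coefficient of variation was 32.6% and the median half-width of the 95% interval 0.89 (log2). No library was a duplicate of its partner (chi-square over degrees of freedom 143 in Olfm4CKO and 92.6 in Ctrl). CPM is normalised by TMM; levels are per kilobase of the longest GENCODE vM21 transcript, and coordinates, 1-based, are RefSeq GRCm38.p6 (51 of 52 symbols matched). The limit for a count of 0 is 3 counts, counting error only. The fit was tested on simulated counts.

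The members, gene lists and tests were chosen with earlier results of these data known. Full values follow a rule: 27 genes named in the rule, the 6 smallest p and the 2 highest per class, and the smallest p of each pathway list with Adrb3, Gnas, Pkia and Rapgef3; Akap6 among them was too low to test, and 1 gene the rule gave is not reported here. Nr4a2, Per1, Ucp1 and Olfm4, the sex-linked genes and the remaining members were named outside it, after their values were seen. Alternatives were the filter, 3 other scalings, DESeq2 1.42.0, limma-voom (limma 3.58.1), a replicate block, each library left out, and the median transcript length. A protein comparison was not made.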

Additional observations from a re-analysis of the deposited data

How the results depend on the processing

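Each group had 2 libraries, with 15346705 counts or more in each. Across genes, the libraries of a group differed beyond counting error (chi-square over degrees of freedom 143 in Olfm4CKO and 92.6 in Ctrl). The part of counting error in the intervals of genes with few counts was not tested. No gene of the 4 classes passed in any alternative fit that kept all 4 libraries. Over all genes, edgeR passed 0, DESeq2 1, the fit with the replicate number as a block 4, and the fits leaving out 1 library 6 to 27; of the pathway genes, 0 to 2 passed with 1 library left out. The replicate numbers did not pair the libraries: deviations of same-numbered libraries from their group means correlated at 0.003 across genes. With the block, Adcy9 was at -0.01 and Adrb3 at 0.08, the values that limma-voom gave, and no call among the 39 changed. Prkacb was at 0.00 with total counts only. The median of the 39 ran from -0.28 to 0.31 with 1 library left out. With the median transcript length, Adcy6 held 51.9% of the cyclases, Pde4d 19.4% of the phosphodiesterases, Prkar2b 43% of the PKA subunits and Akap1 34% of the anchors; the cause of the other changes was not tested.

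Log2 fold changes that turned sign when 1 library was left out, with their lowest and highest values, were as follows. Of the cyclases, Adcy5 ran from -0.27 to 1.07, Adcy6 from -0.48 to 0.31, Adcy9 from -0.91 to 0.77 and Adcy10 from -0.81 to 2.81. Of the phosphodiesterases, Pde1a ran from -1.18 to 0.29, Pde3a from -0.85 to 0.21, Pde3b from -0.86 to 0.26, Pde4a from -0.51 to 0.11, Pde4d from -0.51 to 0.69, Pde5a from -0.42 to 0.77 and Pde8b from -0.44 to 0.76. Of the PKA subunits, Prkaca ran from -0.46 to 0.11, Prkacb from -0.36 to 0.40, Prkar1a from -0.14 to 0.24, Prkar1b from -0.11 to 0.64, Prkar2a from -0.77 to 0.14 and Prkar2b from -0.56 to 0.13. Of the anchors, Akap1 ran from -0.65 to 0.10, Akap7 from -0.34 to 0.27, Akap11 from -0.55 to 0.35 and Akap13 from -0.47 to 0.41. Of the other pathway genes, Adrb3 ran from -0.64 to 0.83, Gnas from -0.43 to 0.25, Pkia from -0.37 to 0.16 and Rapgef3 from -0.01 to 0.94.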
